A study of Mus musculus with 8 samples.

Results

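The response of mouse dendritic cells to cat hair extract (Cat) was described over the genes detected in them, by setting the 2 Cat libraries against the 2 untreated libraries. A gene was taken as detected when its value was at least 0.5 in 2 or more of the 8 libraries of the experiment, which held for 11455 of 24054 gene rows. Of these, 11037 reached 0.5 in both Cat and both untreated libraries and 149 reached it in fewer than 2 of those 4. The rows nearest the threshold were Arhgef17, Dnase1 and Rnd3 on the inside, with a second-highest value of 0.5005, and C030016D13Rik, Oacyl and Slc16a11 on the outside, with 0.4966.

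RNA was sequenced from DC2.4, a dendritic cell line of C57BL/6 mice, after stimulation with allergen extracts. The tested cells had 250 PNU/ml of cat hair extract for 4 h, and further cells had the same dose and time of house dust mite extract (HDM) or timothy grass extract (Grass). PNU is the protein nitrogen unit, a measure of an extract's protein content. Untreated cells had no extract. All 4 groups of 2 libraries were grown in RPMI with 10% serum and then kept in 0.1% serum for 4 h, and the design text calls the 2 samples of a group independent. No vehicle is named for the untreated cells, so an effect of the extract and one of what it was dissolved in cannot be told apart. No time between the low-serum step and harvest is given for the untreated cells either. An effect of the extract and one of a different time in culture can therefore not be told apart.

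Dendritic cells take up foreign protein, break it down in endosomes and lysosomes and present the peptides to T cells. Pattern recognition receptors signal through NF-kB and interferon regulatory factors to cytokines and to interferon-stimulated genes, while growth factor signalling through ERK switches on immediate early genes and entry into the cell cycle. Extracts of cat hair and dander carry the allergen Fel d 1 among many other proteins. DC2.4 was made by transforming bone marrow cells with myc and raf oncogenes, so it divides continuously, unlike most dendritic cells in tissue.

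Reads per library, in units of 1e6, ran from 31.94 to 43.32, of which the 10 most abundant genes took 4.71% to 4.94%. Values are as deposited, as reads per 1e6 of a scaled library size, and 1 read is worth 0.0226 to 0.0308. Myeloid genes were present in the Cat and untreated libraries, with Csf1r, the receptor of the macrophage growth factor, at 491 and 492 with Cat and 506 and 492 in untreated cells. The dendritic cell factor Irf8 was at 52.8 and 53.6 with Cat and 57.7 and 62.6 in untreated cells, and the invariant chain Cd74 was at 182 and 189 with Cat and 200 and 208 in untreated cells. Some other defining genes were low or absent: Itgax, which encodes CD11c, was at 2.61 and 2.62 with Cat and 2.57 and 2.60 in untreated cells, and the MHC class II gene H2-Ab1 had 0 reads in all 8 libraries. Of markers of other cell types, none for B cells, neutrophils and mast cells or fibroblasts reached the detection threshold, and 2 of 10 for T and NK cells (Cd8a and Lck) and 1 of 9 for epithelial and endothelial cells (Pecam1) did. None of these 3 was called, and Lck was at 2.64 and 2.35 with Cat and 2.42 and 3.18 in untreated cells. In bulk RNA, a change in the number of cells in a state and a change in RNA per cell cannot be told apart, and the p-values rest only on how far these libraries differ from each other.

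With cat hair extract, 497 genes were called higher, 4.34% of the rows tested, and 1563 were called lower, 13.6% of them, at an adjusted p under 0.05 (limma with Benjamini-Hochberg adjustment). Most changes were small. The median size of a called log2 fold change was 0.17, and 19 of the higher and 26 of the lower genes had changed at least 1.5-fold. The deposited values hold the library scaling factor (TMM) squared, and with the factor applied once the counts were 788 higher and 1052 lower, so that 42.8% of the calls were higher, against 24.1% as deposited. This scaling moves every gene by the same small step: the median log2 fold change of all rows was -0.03 as deposited and 0.00 with the factor applied once. Counts with the factor applied once are therefore given beside those of the main gene groups. Where 0 members of a list are given as called in one direction, edgeR and DESeq2 on the recovered reads also called 0 in it, and at most 4 reached an unadjusted p under 0.05 in limma. The calls also rest on how the spread was estimated, with 163 higher and 386 lower in limma without its trend and robust settings. Without Cat 1 there were 244 higher and 945 lower genes, and without Cat 2 there were 201 and 754. The value of a gene sets its precision: the median SE of a log2 fold change was 0.04 over 8822 rows with a mean of at least 10, of which 1933 were called, and 0.27 over 1125 rows with a mean under 2, of which 30 were called. Over all rows tested, called or not, 56% did not overlap between the Cat and untreated libraries, 2297 with both Cat libraries above both untreated ones and 4119 with both below, so that non-overlap alone sets no gene apart. The share was 51.1% for Cat and HDM and 54.7% for Cat and Grass.

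**Figure D1:**
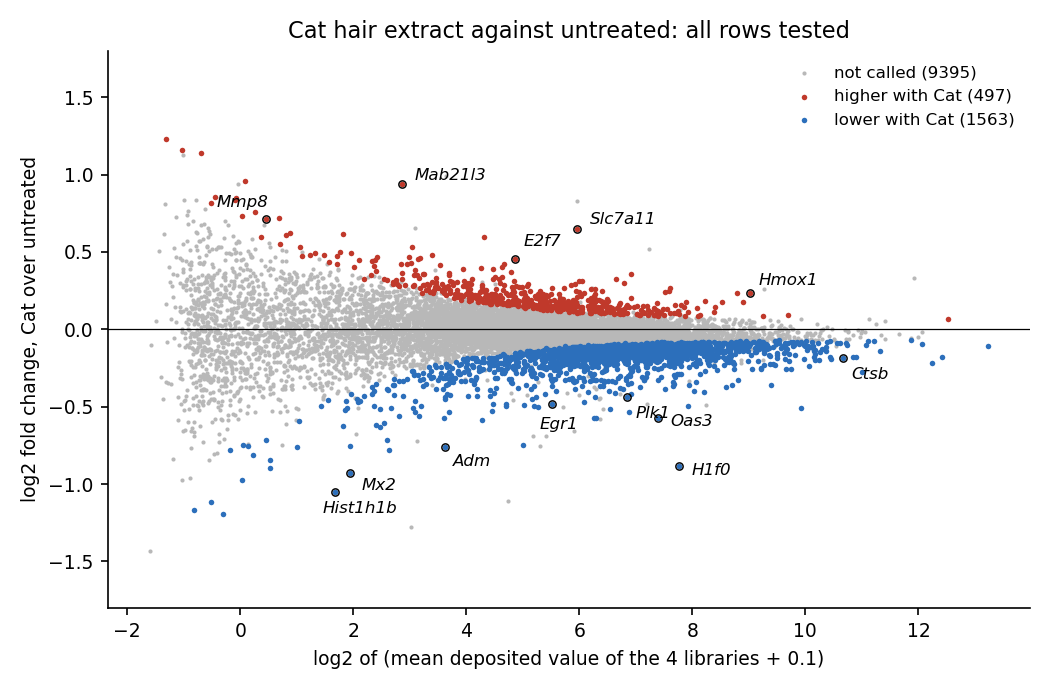
Log2 fold change of Cat over untreated (vertical axis) against the log2 of the mean deposited value plus 0.1 (horizontal axis) for the rows tested. Red points are the 497 genes called higher with Cat, blue points the 1563 called lower and grey points those not called, and 5 rows lie beyond the vertical axis.

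The highest rise among genes with a mean of at least 1 was that of Mab21l3, a gene of the MAB21 family. Its value was 9.80 and 9.21 in the Cat libraries and 4.78 and 5.05 in the untreated libraries (log2 fold change 0.94, SE 0.09, limma adjusted p = 6.7e-08). Slc7a11, the cystine importer that supplies glutathione synthesis, was at 77.6 and 75.1 with Cat and 48.5 and 48.7 in untreated cells (0.65, SE 0.04, limma adjusted p = 1.7e-11). Both Cat libraries lay well above both untreated ones for each of these genes, and replicates differed little. The rises were not particular to Cat. Against the same untreated libraries Mab21l3 was at 1.02 with HDM and 1.14 with Grass, and Slc7a11 at 0.76 with HDM and 0.77 with Grass. Slc22a23, of the organic ion transporter family, was at 22.6 and 25.02 with Cat and 16.2 and 15.2 in untreated cells (0.60, SE 0.07). Rnd1 was at 10.5 and 8.72 with Cat and 6.23 and 6.94 in untreated cells (0.53, SE 0.10). The groups did not overlap in either gene, although the Cat libraries differed from each other more than for Slc7a11.

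The other genes with the largest rises had low values. Spata2l was at 3.98 and 4.33 with Cat and 2.48 and 2.89 in untreated cells (0.61, SE 0.13). Tlr8, an endosomal receptor of RNA, was at 1.42 and 1.41 with Cat and 0.865 and 0.729 in untreated cells (0.76, SE 0.23), and its call ended without Cat 1 (limma adjusted p = 0.0963), without Cat 2 (0.101) and without untreated 2 (0.100). Mmp8, the neutrophil collagenase, was at 1.45 and 1.77 with Cat and 0.836 and 1.05 in untreated cells (0.71, SE 0.20), which was no longer called without Cat 2 (limma adjusted p = 0.159) and without untreated 1 (0.0737). The rest of the 12 were 4833417C18Rik (0.72), Ddr1 (0.62), Crip2 (0.61), G630025P09Rik (0.59) and Gm166 (0.55). Without Cat 2 the call ended in each of these 5, at limma adjusted p-values of 0.116, 0.167, 0.0966, 0.247 and 0.158 in that order, and all but 4833417C18Rik also lost it without Cat 1 and without an untreated library.

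The 12 largest falls included 4 histone genes. H1f0, the linker histone of cells that stop dividing, was at 154 and 151 with Cat and 286 and 279 in untreated cells (log2 fold change -0.89, SE 0.03, limma adjusted p = 3.3e-16). Adm, which encodes the vasodilator peptide adrenomedullin, was at 8.55 and 9.55 with Cat and 14.99 and 15.78 in untreated cells (-0.76, SE 0.09). Mx2, an interferon-induced GTPase, was at 2.61 and 2.43 with Cat and 4.41 and 5.43 in untreated cells (-0.93, SE 0.16). Every Cat library lay below every untreated one, and for Mx2 the untreated libraries stood further apart than the Cat ones. These genes also fell with the other extracts against the same untreated libraries. H1f0 was at -1.10 with HDM and -1.21 with Grass, Adm at -0.84 and -0.47, and Mx2 at -0.93 and -0.96, in that order. Hist1h1b, a linker histone made in S phase, was at 1.82 and 2.07 with Cat and 5.13 and 3.33 in untreated cells (-1.05, SE 0.20). The size of its fall is uncertain, since its untreated libraries differed from each other. Histone genes of a cluster are also near copies that may share reads, which was not tested. The rest of the 12 largest falls were Gm14446 (-0.90), Zfp300 (-0.84), Mtmr7 (-0.81), Ifi44 (-0.78), Hist1h4k (-0.76), Gm5431 (-0.75), Ifi204 (-0.75) and Hist1h2ae (-0.71), several with near copies in the genome. Without Cat 2 the calls of Gm14446 (-0.46, limma adjusted p = 0.302), Zfp300 (0.0790), Mtmr7 (0.164) and Ifi204 (0.211) ended, and without Cat 1 those of Hist1h4k (-0.36, limma adjusted p = 0.376), Hist1h2ae (-0.46, limma adjusted p = 0.304), Mtmr7 (0.107) and Ifi204 (0.160). The calls of Hist1h4k (0.147) and Hist1h2ae (0.181) also ended without untreated 1, and that of Mtmr7 without untreated 2 (-0.51, limma adjusted p = 0.346), while Hist1h4k was at -1.17 without Cat 2. Ifi204 was not called with the scaling factor applied once either.

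**Figure D2:**
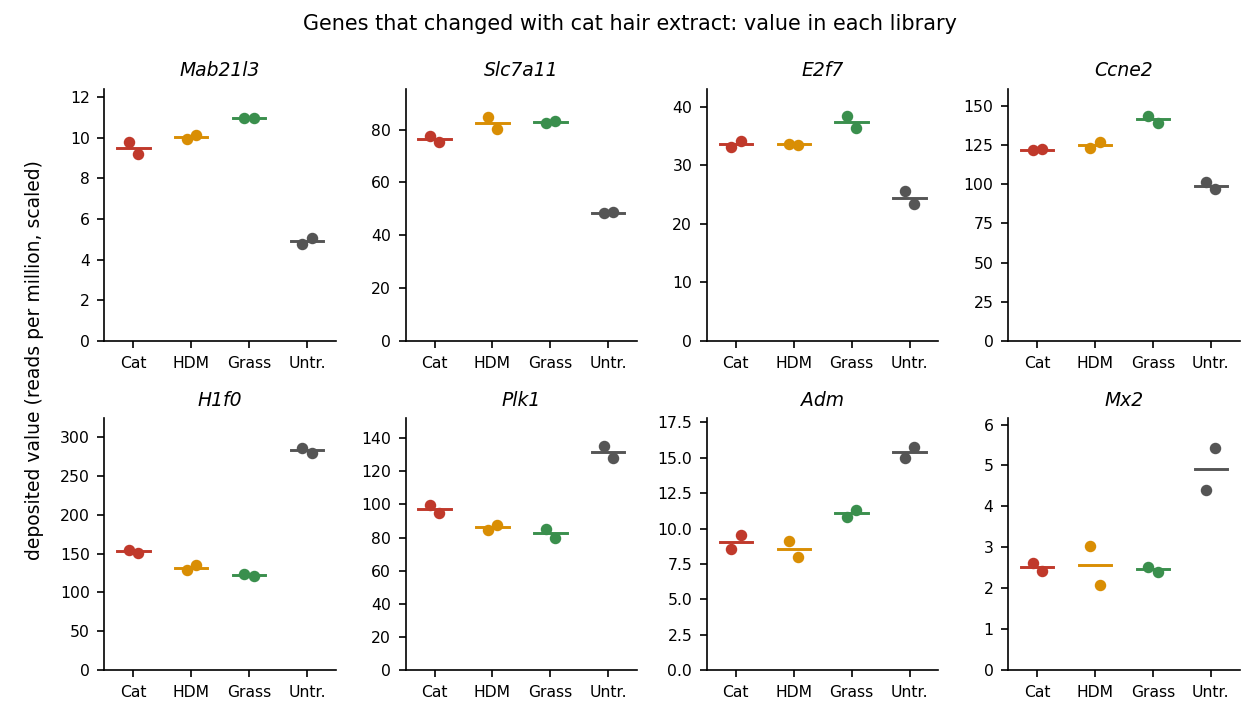
Deposited value (vertical axis, reads per 1e6, scaled) in each library by group, with points for libraries and bars for the mean of 2. Mab21l3, Slc7a11, E2f7 and Ccne2 were higher with Cat than in untreated cells, and H1f0, Plk1, Adm and Mx2 were lower, with no overlap between the 2 groups in any of the 8 genes, as in 56% of all rows tested.

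Cell cycle genes moved in opposite directions by phase. Counts of list members against untreated cells, here and below, stand beside 4.34% of all rows called higher and 13.6% called lower. In the cell cycle G2/M list, which holds cyclin B, its kinase, the mitotic kinases, kinesins and centromere proteins, 30 of 35 tested members fell and 0 rose, with a median log2 fold change of -0.29, beside -0.03 over all rows tested. Cenpe, the kinesin that carries chromosomes to the spindle equator, was at 229 and 221 with Cat and 296 and 298 in untreated cells (-0.40, SE 0.03, limma adjusted p = 6.3e-09). Plk1, a kinase needed to enter and leave mitosis, was at 99.5 and 94.9 with Cat and 135 and 128 in untreated cells (-0.44, SE 0.04). Cdc20, the activator of the anaphase-promoting complex, was at 118 and 117 with Cat and 155 and 149 in untreated cells (-0.37, SE 0.03). Every Cat library lay below both untreated ones in these genes, as in 4119 of the 11455 rows tested. Aurkb (0.06), Birc5 (0.04), Ccnf (-0.09), Ttk (-0.10) and Pttg1 (-0.14) were not called. The count was 29 with the scaling factor applied once and 27 to 30 with 1 library left out.

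In the cell cycle G1/S and replication list, 19 of 38 tested members rose and 1, the D-type cyclin Ccnd1 (-0.14), fell, with a median of 0.09. The list median was 0.01 from HDM and -0.05 from Grass, so the rise was not particular to Cat. Ccne2, a cyclin that drives entry into S phase, was at 121 and 122 with Cat and 101 and 96.6 in untreated cells (log2 fold change 0.30, SE 0.03, limma adjusted p = 6.8e-07). E2f7, an E2F factor that represses other E2F targets, was at 33.1 and 34.1 with Cat and 25.5 and 23.4 in untreated cells (0.46, SE 0.05). E2f1 itself was at 83.9 and 85.6 with Cat and 72.6 and 69.1 in untreated cells (0.26, SE 0.04). The 2 groups did not overlap in these genes, as in 56% of all rows. Subunits of the replicative helicase rose by less, with Mcm7 at 0.16, Mcm6 at 0.14, Mcm5 at 0.13 and Mcm3 at 0.09, while Mcm2 and Mcm4 were not called. With the scaling factor applied once 22 members rose and 1 fell, without Cat 1 or without Cat 2 there were 13 that rose, and in limma without its trend and robust settings there were 7. Ccnd1 was not called without Cat 1 (limma adjusted p = 0.111), Cat 2 (0.102) or untreated 2 (-0.06, limma adjusted p = 0.164) and was at -0.22 without untreated 1, nor was Mcm3 without Cat 1 (0.261), Cat 2 (0.0692), untreated 2 (0.06, limma adjusted p = 0.219) or an HDM library.

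**Figure D3:**
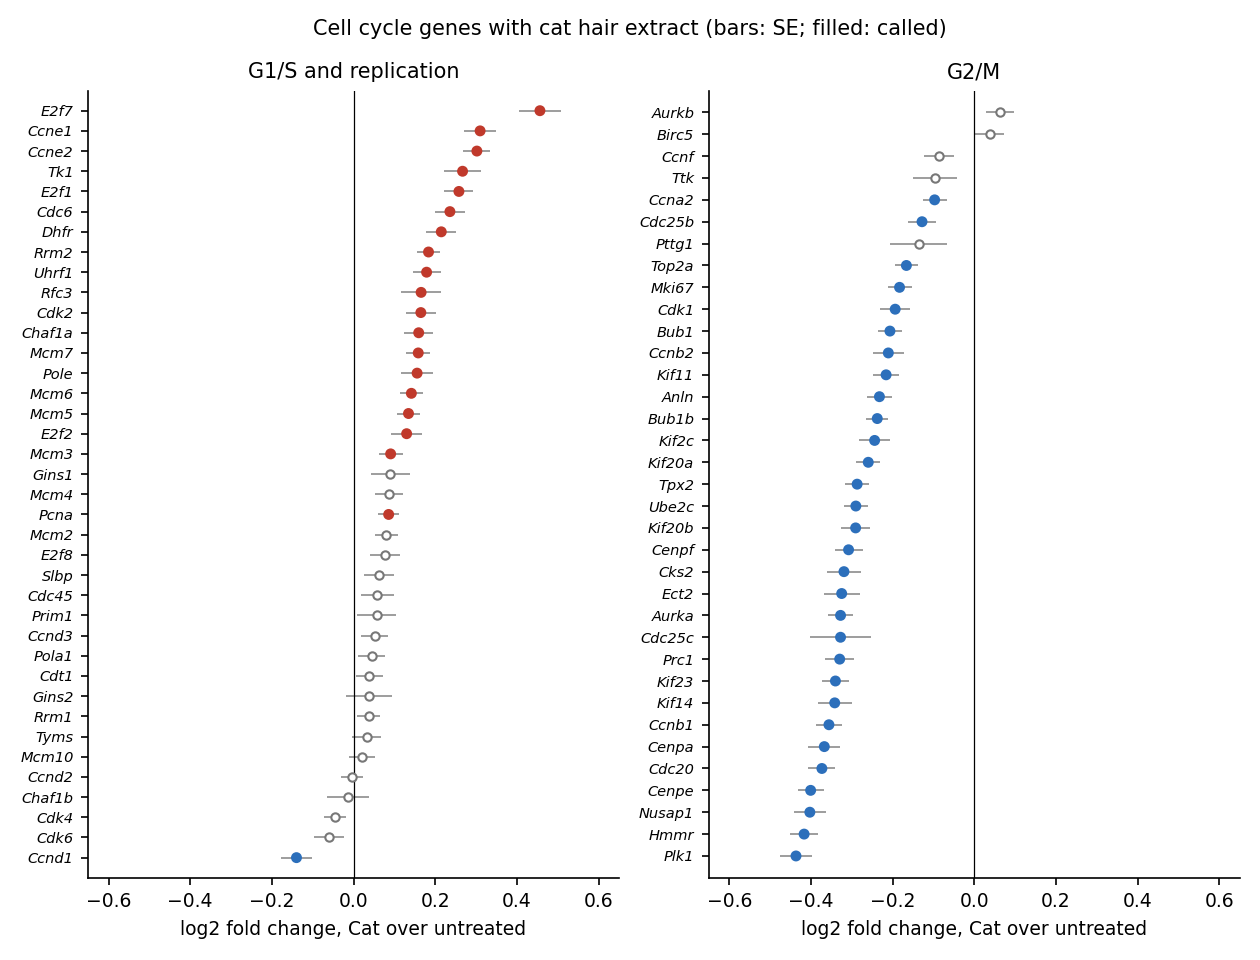
Log2 fold change of Cat over untreated (horizontal axis) with its SE as a bar, for each tested member of the G1/S and replication list (left, 38 genes) and of the G2/M list (right, 35 genes). Filled points were called: 19 red points lie above 0 and 1 blue point, Ccnd1, below 0 on the left, and 30 blue points lie below 0 on the right.

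Promoters of these lists were searched for the motifs known to time their transcription, in windows of 300 bases (250 before to 50 after the RefSeq start in GRCm38.p6) on both strands. Genes expressed in G2 and M carry a cell cycle homology region, TTTGAA or TTCGAA, which is bound by complexes that hold them off in G1 and on in G2. It was in 24 of 30 matched G2/M promoters and in 22 of the 26 of members that fell, beside 13.9% of promoters of the rows tested and 19.4% of all promoters. The CCAAT box was in 24 of the 30 G2/M promoters, beside 39.7% of those tested. E2F sites, searched as TTTGGCGC, TTTCCCGC, TTTCGCGC or TTTGCCGC, were in 11 of 30 matched G1/S promoters and in 9 of the 16 of members that rose, beside 4.29% of promoters tested and 2.32% of all. A match of letters is not a bound site. The lists here and below hold genes of known regulation, so a share above that of all promoters describes the list and is no test of the response. The stretches around a match are shown for 2 members that fell and 2 that rose, 5′ to 3′ on the gene's strand with the match or its reverse complement in capitals, for Cdc20 (chr4:118437344-118437443, minus strand), Ube2c (chr2:164769829-164769928, plus), E2f7 (chr10:110745195-110745294, plus) and Cdc6 (chr11:98907967-98908066, plus).
Cdc20: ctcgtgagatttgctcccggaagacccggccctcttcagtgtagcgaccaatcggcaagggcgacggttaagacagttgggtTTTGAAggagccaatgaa
Ube2c: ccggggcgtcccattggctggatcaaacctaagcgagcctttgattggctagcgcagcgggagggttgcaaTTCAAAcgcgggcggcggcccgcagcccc
E2f7: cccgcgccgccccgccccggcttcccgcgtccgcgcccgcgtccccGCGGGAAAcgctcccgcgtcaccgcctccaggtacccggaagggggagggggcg
Cdc6: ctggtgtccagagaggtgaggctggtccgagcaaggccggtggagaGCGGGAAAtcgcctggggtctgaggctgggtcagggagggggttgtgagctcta
The match in Cdc20 begins 18 bases before the start and that in Ube2c 29 bases before it. Those of E2f7 and Cdc6 begin 198 and 138 bases before it.

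Linker histones, histone variants and core histone genes of the clusters were among the genes that fell. In the list of linker and replication-independent histones, 11 of 17 tested members fell and 0 rose (median -0.295), with 10 when the scaling factor was applied once and 9 to 11 with 1 library left out. Besides H1f0, the linker histone Hist1h1c was at 59.5 and 54.0 with Cat and 79.9 and 77.5 in untreated cells (log2 fold change -0.47, SE 0.05). H2afx, the variant marked at DNA breaks, fell by 0.29 on the log2 scale (SE 0.03). H3f3b, which encodes histone H3.3, was at 658 and 640 with Cat and 751 and 770 in untreated cells (-0.23, SE 0.03). The groups did not overlap in any of these genes, as in 56% of all rows. DESeq2 on the recovered reads called 7 members lower. The list median was 0.02 from HDM and 0.02 from Grass, so the fall was not particular to Cat. The name of the list does not hold for every member, since it also includes core histone genes of the clusters. Of these, Hist2h3c2 (-0.63), Hist3h2a (-0.63), Hist1h2be (-0.62), Hist2h2be (-0.35), Hist1h2bc (-0.315) and Hist1h4i (-0.25) were among the 11 that fell. Not every histone gene went this way. The estimate was positive in 2 of the 17 members, and outside the list Hist1h2af was at 0.94 and not called (SE 0.33, limma adjusted p = 0.0504).

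Genes of the lysosome fell together by small amounts. Of 31 tested members 26 fell and 0 rose, with a median log2 fold change of -0.155, and the count was 25 with the scaling factor applied once, 23 to 26 with 1 library left out and 13 in limma without its trend and robust settings. Ctsb, a cathepsin that digests protein in the lysosome, was at 1511 and 1524 with Cat and 1716 and 1742 in untreated cells (-0.19, SE 0.02). Ctsd, another cathepsin, was at 1068 and 1089 with Cat and 1214 and 1259 in untreated cells (-0.20, SE 0.03). Gla, which removes galactose from glycolipids, was at 43.6 and 44.5 with Cat and 54.4 and 53.8 in untreated cells (-0.30, SE 0.04). Grn, the lysosomal progranulin, fell by 0.20 on the log2 scale and the membrane protein Lamp2 by 0.20. All of these genes were lower in each Cat library than in either untreated one, as were 4119 of the 11455 rows tested. The summed value of the list was 11500 in both Cat libraries and 12700 to 12800 in the untreated ones. The median log2 difference of its members was 0.01 from HDM and -0.01 from Grass, so the fall was not particular to Cat. Subunits of the proton pump that acidifies the lysosome were among those that fell, with Atp6v1h at -0.17, Atp6v0d1 at -0.17 and Atp6v1b2 at -0.15.

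The E-box of lysosomal genes, TCACGTGA, was in 5 of 24 matched lysosome promoters and in 4 of the 19 of members that fell, beside 2.11% of promoters tested and 1.01% of all. It is the site read by Tfeb and its relatives, and is shown in capitals in 100 bases of Ctsd (chr7:142387873-142387972, minus strand) and of Gla (chrX:134601147-134601246, minus), which has 2 matches.
Ctsd: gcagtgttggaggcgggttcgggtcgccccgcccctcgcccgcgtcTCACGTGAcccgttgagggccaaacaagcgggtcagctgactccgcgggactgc
Gla: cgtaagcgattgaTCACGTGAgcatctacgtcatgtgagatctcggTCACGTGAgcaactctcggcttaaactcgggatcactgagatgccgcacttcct

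Glycolysis and hypoxia genes, many of them targets of the hypoxia-inducible factor Hif1a, fell in 22 of 34 tested members and rose in 1, with a median of -0.13. The scaling moves this count, to 18 lower with the factor applied once and 13 with library totals alone, and it was 10 in limma without its trend and robust settings. Bnip3, a mitophagy receptor, was at 254 and 253 with Cat and 325 and 347 in untreated cells (log2 fold change -0.41, SE 0.03, limma adjusted p = 2.0e-09). Slc2a1, the glucose transporter GLUT1, was at 384 and 406 with Cat and 497 and 496 in untreated cells (-0.33, SE 0.03). Ndrg1 was at 186 and 183 with Cat and 220 and 236 in untreated cells (-0.31, SE 0.03). No Cat library reached an untreated one in these genes, as in 4119 of the 11455 rows tested. Glycolytic enzymes changed by less, with Pgk1 at -0.18, Hk2 at -0.16, Aldoa at -0.10 and Gapdh at -0.09 (SE 0.02), and without Cat 1 the calls of Gapdh (limma adjusted p = 0.145) and Aldoa (0.137) ended, and Aldoa was at -0.07 and not called without untreated 2. Pfkfb3, which makes the activator of phosphofructokinase, was the member that rose (0.23), and was not called without Cat 1 (limma adjusted p = 0.173) or untreated 2 (0.0753). The letters ACGTG, the core of the hypoxia response element, were in 17 of 30 matched promoters, beside 26.5% of promoters tested and 19.7% of all, and they lie within every lysosomal E-box TCACGTGA.

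Part of the antioxidant genes rose. Of 25 tested members of the Nrf2 and glutathione list, 11 rose and 2 fell, with a median log2 fold change of 0.07, and 12 rose with the scaling factor applied once. The factor Nrf2 is degraded until oxidants or reactive compounds modify its partner Keap1, and then drives genes for glutathione and detoxification. Next to Slc7a11, Srxn1, which repairs oxidised peroxiredoxin, was at 136 and 136 with Cat and 102 and 110 in untreated cells (0.36, SE 0.03). The subunits of the enzyme that begins glutathione synthesis rose too, with Gclm at 209 and 215 with Cat and 178 and 175 in untreated cells (0.26, SE 0.03) and Gclc at 94.7 and 89.6 with Cat and 77.7 and 77.5 in untreated cells (0.25, SE 0.04). The groups did not overlap in these 3 genes, as in 56% of all rows. Hmox1, which degrades haem, was at 556 and 569 with Cat and 453 and 506 in untreated cells (0.23, SE 0.05, limma adjusted p = 0.012), and lost its call without Cat 2 (limma adjusted p = 0.0847) and was at 0.15 without untreated 1. Nfe2l2, which encodes Nrf2, fell by 0.14 on the log2 scale and Me1, the malic enzyme, by 0.15, and the Nfe2l2 call ended without Cat 2 (limma adjusted p = 0.0706). The number that rose was 8 without Cat 1 and 7 without Cat 2 or in limma without its trend and robust settings.

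The core of the antioxidant response element, TGACNNNGC, was in 7 of 21 matched promoters of the list and in 3 of the 8 of members that rose, beside 15.2% of promoters tested and 12.5% of all. Its reverse complement is in capitals in 100 bases of Gclm (chr3:122245377-122245476, plus strand).
Gclm: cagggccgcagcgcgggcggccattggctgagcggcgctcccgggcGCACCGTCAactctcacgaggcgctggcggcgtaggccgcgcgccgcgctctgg

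Immediate early genes, the transcription factors and mRNA-binding proteins that growth factors switch on within minutes, fell in 11 of 27 tested members and rose in 0, with a median of -0.12. The count was also 11 with the scaling factor applied once, and it was 6 without Cat 2. Egr1 was at 37.9 and 38.0 with Cat and 51.1 and 55.1 in untreated cells (log2 fold change -0.48, SE 0.05, limma adjusted p = 6.1e-07). Zfp36, which destabilises cytokine mRNA, was at 62.6 and 66.1 with Cat and 75.5 and 77.2 in untreated cells (-0.25, SE 0.04). In both genes the groups lay apart by more than their replicates did. Atf3 (-0.22), Junb (-0.18) and Srf (-0.16) also fell. Feedback inhibitors of ERK signalling fell in 6 of 17 tested members and rose in 0 (median -0.11, also 6 with the scaling factor applied once and 2 in limma without its trend and robust settings), with the ERK phosphatase Dusp7 at 115 and 112 with Cat and 130 and 138 in untreated cells (-0.24, SE 0.04) and Dusp3 at 154 and 155 with Cat and 174 and 183 in untreated cells (-0.21, SE 0.03). Dusp1 (-0.24), Spred1 (-0.16), Dusp4 (-0.15) and Spred3 (-0.31) were the rest, and without Cat 1 the calls of Spred3 (limma adjusted p = 0.143) and Dusp1 (0.0867) ended. Actb, which encodes the cytoskeletal actin and is a target of Srf, was at 4482 and 4508 with Cat and 5060 and 5376 in untreated cells (-0.21, SE 0.03).

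The title of the study names an antiviral signature, and interferon-stimulated genes were lower with cat hair extract than without. Of 57 tested members 33 fell and 0 rose, with a median log2 fold change of -0.39, and every one of the 57 had a negative estimate. None was higher at an unadjusted p under 0.05, and edgeR and DESeq2 on the recovered reads also called 0 higher. The count rests on single libraries more than those above: it was 20 without Cat 1, 19 without Cat 2 and 53 without untreated 1, whereas the scaling factor applied once gave 31 and limma without its trend and robust settings 12. The untreated libraries differed from each other here, with a summed value of the list of 3800 in one and 4490 in the other, against 3100 and 3160 with Cat. Trim25, the ligase that activates RIG-I, was at 372 and 360 with Cat and 447 and 493 in untreated cells (-0.36, SE 0.03, limma adjusted p = 5.9e-07). Oas2, a sensor of double-stranded RNA, was at 75.9 and 77.0 with Cat and 93.0 and 100 in untreated cells (-0.33, SE 0.04). Isg15, a ubiquitin-like modifier, was at 27.4 and 27.3 with Cat and 38.2 and 51.1 in untreated cells and was not called (-0.69, SE 0.18, limma adjusted p = 0.076), although it was called without HDM 1, untreated 1 or untreated 2 and by DESeq2. Reads of interferon beta were few: Ifnb1 had 6 and 3 reads with Cat and 4 and 7 in untreated cells, below the detection threshold.

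The core of the interferon-stimulated response element, GAAA and GAAA with any 2 bases between, was in 25 of 46 matched promoters of the list and in 13 of the 27 of members that fell, beside 3.14% of promoters tested and 3.49% of all. The share was no larger among members called lower than in the whole list. All 57 tested members had a negative estimate, so this cannot tell whether the motif goes with a fall. Both members shown fell: Irgm2, an interferon-induced GTPase (-0.48), on the plus strand (chr11:58214868-58214967), and Bst2, which tethers budding virus to the cell (-0.37), on the minus strand (chr8:71537542-71537641), where 2 matches overlap.
Irgm2: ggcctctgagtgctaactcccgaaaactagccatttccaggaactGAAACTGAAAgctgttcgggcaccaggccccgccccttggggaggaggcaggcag
Bst2: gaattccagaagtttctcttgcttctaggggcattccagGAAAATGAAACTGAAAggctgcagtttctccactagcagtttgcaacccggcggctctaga

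Genes of antigen presentation by MHC class I fell in 11 of 21 tested members and rose in 0 (median -0.16), with 9 when the scaling factor was applied once, 7 without Cat 2 or untreated 2, and 1 in limma without its trend and robust settings. H2-T24, a non-classical heavy chain with close copies, was at 10.1 and 10.3 with Cat and 13.4 and 14.7 in untreated cells (-0.45, SE 0.08). Tap1, a subunit of the peptide transporter, was at 43.8 and 44.8 with Cat and 50.2 and 56.5 in untreated cells (-0.26, SE 0.05). The median of the class I list was -0.02 from HDM and -0.03 from Grass, so its fall was not particular to Cat. Of MHC class II and co-stimulation genes 2 of 12 tested fell, beside 13.6% of all rows, a count from which nothing is read: the invariant chain Cd74 (-0.14) and the co-stimulatory ligand Tnfsf9 (-0.18). Both calls ended without Cat 1 (limma adjusted p = 0.0875 and 0.0643), and Tnfsf9 was at -0.11 without untreated 2. Cd86, a ligand of CD28 on T cells, was at 24.2 and 24.5 with Cat and 24.5 and 24.3 in untreated cells (limma adjusted p = 0.97). Among dendritic and myeloid identity genes 8 of 22 fell and 0 rose (also 8 with the scaling factor applied once, and 2 in limma without its trend and robust settings). Ptprc, the leukocyte phosphatase CD45, was at 271 and 272 with Cat and 330 and 324 in untreated cells (-0.27, SE 0.03). The inhibitory receptor Sirpa (-0.15), the Fc receptor chain Fcer1g (-0.18) and the integrin Itgam (-0.14) fell by less.

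Cytokine, NF-kB feedback and receptor genes are given beside the 4.34% of all rows called higher and the 13.6% called lower, and nothing is read from their counts. Of 19 tested members of the cytokines and chemokines list, the chemokines Ccl9 (-0.15) and Ccl2 (-0.45) fell and 0 rose. The number that fell was 6 without untreated 1, and the Ccl2 call ended without Cat 1 (limma adjusted p = 0.150), Cat 2 (0.214) or any 1 HDM or Grass library, and Ccl2 was at -0.255 without untreated 2. Tnf was at 33.7 and 35.7 with Cat and 35.9 and 39.6 in untreated cells (-0.12, SE 0.06, limma adjusted p = 0.15), and Il6 had 2 and 0 reads with Cat and 2 and 0 in untreated cells. In the NF-kB feedback list 2 of 24 tested members, Bcl3 (0.26) and Tnfaip2 (0.09), rose and 0 fell, with 4 higher when the scaling factor was applied once, 5 without untreated 2, 0 without Cat 1, Cat 2 or untreated 1, where Bcl3 was at 0.14 and Tnfaip2 at 0.06, and 0 by DESeq2. Of 26 tested pattern recognition receptors Tlr8 rose and Tlr7 (-0.20), Tlr13 (-0.13), Tlr6 (-0.32) and Tlr3 (-0.30) fell. Without Cat 2 none of the 5 was called, at limma adjusted p-values of 0.0979 for Tlr7, 0.101 for Tlr13, 0.0959 for Tlr6 and 0.146 for Tlr3, and without untreated 1 there were 7 that fell.

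**Figure D4:**
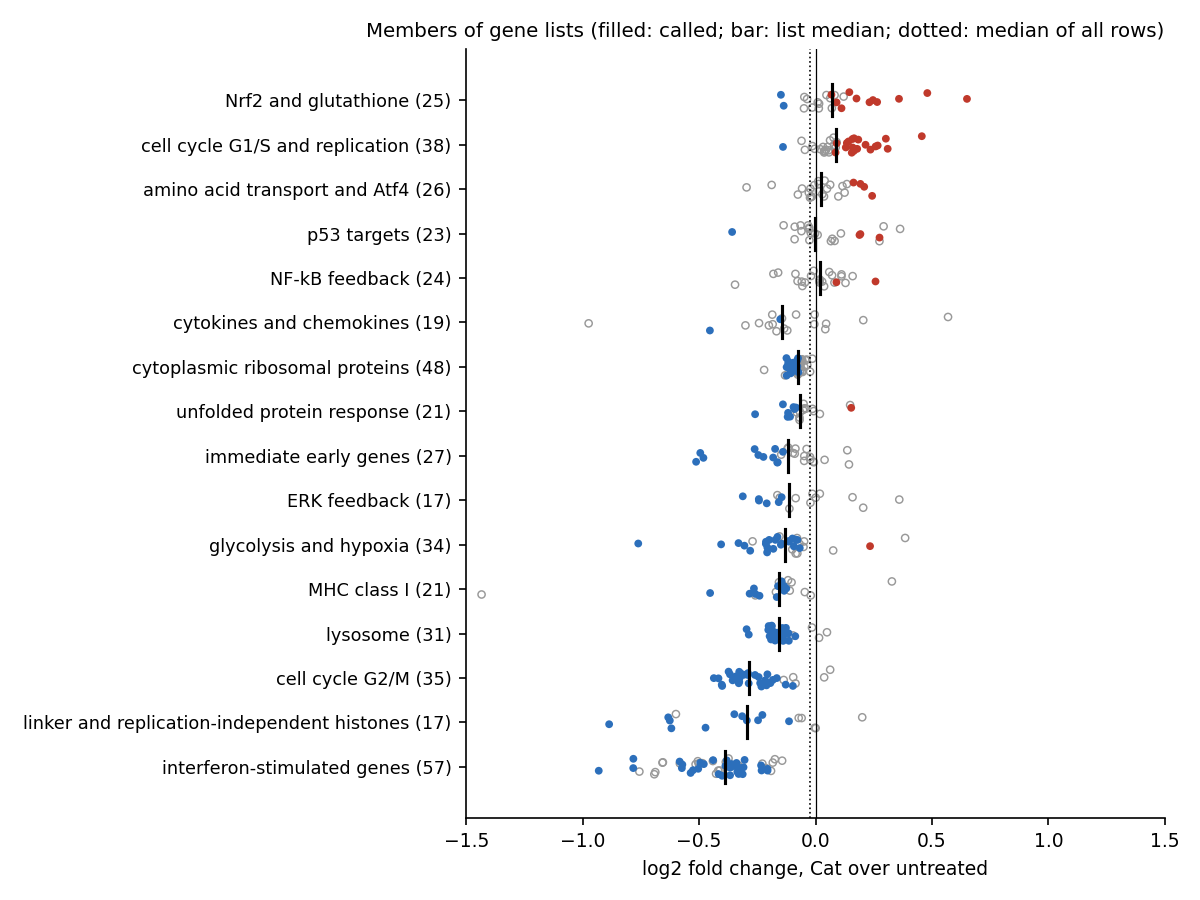
Log2 fold change of Cat over untreated (horizontal axis) for each tested member of 16 gene lists, with the number tested in brackets. Filled points were called (red higher, blue lower), open points were not, the black bar is the median of the list and the dotted line the median of all rows, -0.03. Nrf2 and G1/S genes lie mostly to the right, and G2/M, lysosome, histone and interferon-stimulated genes mostly to the left.

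Stress and growth lists are given beside the 4.34% of all rows called higher and the 13.6% called lower. Amino acid transport and Atf4 genes rose in 4 of 26 and fell in 0, among them the pseudokinase Trib3, at 200 and 195 with Cat and 160 and 174 in untreated cells (0.24, SE 0.03), and Sesn2, an inhibitor of mTORC1 (0.19, SE 0.03). That count was 2 without Cat 2 and by DESeq2, 7 with upper-quartile factors and 9 with library totals alone. Unfolded protein response genes fell in 8 of 21 and rose in 1, Herpud1 (0.15), with 4 lower when the scaling factor was applied once or without Cat 1 and 2 with upper-quartile factors. Edem1, which extracts misfolded glycoproteins for degradation, was at 485 and 489 with Cat and 574 and 592 in untreated cells (-0.26, SE 0.03). Cytoplasmic ribosomal proteins were lower in 18 of 48, but in 3 with the scaling factor applied once, 0 with library totals alone, 0 without Cat 2, 5 without Cat 1, 40 without untreated 1, 2 without untreated 2 and 9 without either HDM library. Heat shock genes were called in 1 of 19 members each way. Ribosome biogenesis and Myc genes fell in 2 of 30 and rose in 0 as deposited, but 1 fell and 3 rose with the scaling factor applied once. Of 23 p53 targets 3 rose (Sesn2, Zmat3 and Sesn1), or 7 without untreated 2, and the kinase Plk2 fell, at 220 and 210 with Cat and 259 and 293 in untreated cells (-0.36, SE 0.05). The Sesn1 call ended without Cat 1 (limma adjusted p = 0.150). In the circadian clock list 4 of 14 members fell and 1 rose, with 2 that fell without Cat 2, and the repressor Bhlhe40 fell by 0.34 on the log2 scale.

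Cat was then set against the other extracts, which asks where the response to cat hair differed from theirs. These comparisons share the Cat libraries with those above. Against HDM, 552 genes were higher with Cat (4.82% of rows tested) and 337 were lower (2.94%). Against Grass, 943 genes were higher with Cat (8.23%) and 410 were lower (3.58%). The scaling matters here too: with the factor applied once the counts were 443 higher and 391 lower against HDM, and 678 higher and 566 lower against Grass, so that the share higher moved to 53.1% against 62.1% as deposited for HDM and to 54.5% against 69.7% as deposited for Grass. Of these genes 29 were higher and 38 lower than with HDM by at least 1.5-fold, and 32 were higher and 18 lower than with Grass.

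Part of the immediate early genes set cat hair extract apart from the other extracts. Of 27 tested members 13 were higher with Cat than with HDM and 4 lower, and 13 were higher than with Grass and 3 lower. Estimates were negative in 10 of the 27 against HDM, down to -0.48, and in 9 against Grass, down to -0.44. Over all rows tested, 4.82% were higher and 2.94% lower than with HDM, and 8.23% were higher and 3.58% lower than with Grass. Egr1 was at 37.9 and 38.0 with Cat, 21.0 and 21.1 with HDM, 18.6 and 17.4 with Grass and 51.1 and 55.1 in untreated cells. Its Cat libraries lay between the other extracts and untreated cells without overlap, at a log2 difference of 0.85 from HDM and 1.07 from Grass (SE 0.05 each, limma adjusted p = 1.4e-11 and 5.9e-13). Fosb, a partner of Jun, was at 5.54 and 5.46 with Cat, 2.24 and 2.28 with HDM, 2.44 and 2.85 with Grass and 6.05 and 5.89 in untreated cells, and Cat did not differ from untreated cells past the threshold (-0.12, SE 0.13). Egr3 (0.93 and 1.21) and Egr2 (1.03 and 1.48) were also higher with Cat than with HDM and Grass. ERK feedback genes followed, with 6 of 17 higher and 0 lower than with HDM, and 6 higher and 0 lower than with Grass. Counts under other settings are not given here for ERK feedback genes or for immediate early genes against Grass. Spry4, an inhibitor of receptor tyrosine kinase signalling, was at 11.9 and 12.2 with Cat, 6.72 and 7.66 with HDM, 6.64 and 7.22 with Grass and 11.2 and 13.0 in untreated cells. Its Cat libraries lay within the untreated range, above the other extracts (0.74 from HDM and 0.79 from Grass, SE 0.09 each). The number of immediate early genes higher than with HDM was 8 without Cat 1, without HDM 2 and by DESeq2, and 7 in limma without its trend and robust settings.

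A few genes outside these lists were also higher with Cat than with both other extracts. Ccl3, a chemokine that recruits leukocytes, was at 188 and 191 with Cat, 112 and 115 with HDM, 102 and 105 with Grass and 200 and 233 in untreated cells (0.74 from HDM and 0.87 from Grass, SE 0.07 each). Tnf was higher with Cat than with HDM by 0.37 and than with Grass by 0.70 (SE 0.06 each). Sema6d, a semaphorin, was at 24.1 and 24.9 with Cat, 12.6 and 12.5 with HDM, 11.9 and 11.2 with Grass and 27.1 and 26.2 in untreated cells (0.96 from HDM and 1.08 from Grass, SE 0.06 each). For Ccl3, Tnf and Sema6d Cat was not called against untreated cells. Rnase6 (1.15 and 1.19, SE 0.19 each) differed from HDM and Grass in the same direction at low values.

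Other genes were lower with Cat than with HDM. Ahrr, induced by the aryl hydrocarbon receptor and in turn its repressor, was at 2.21 and 2.01 with Cat, 12.01 and 12.12 with HDM, 2.19 and 1.79 with Grass and 1.643 and 1.605 in untreated cells (-2.46 from HDM, SE 0.14). In the Ahr targets list 4 of 6 tested members were lower with Cat than with HDM and 0 higher, and 0 were called against Grass. Counts of list members against HDM, here and for NF-kB feedback below, stand beside 2.94% of all rows lower and 4.82% higher. Those against Grass stand beside 3.58% lower and 8.23% higher. Against untreated cells 1 member of the list, Ahr itself, was higher (0.45) and 1, Tiparp, was lower (-0.30), beside 4.34% of all rows higher and 13.6% lower. Cxcl2, a neutrophil chemokine, was at 3.55 and 3.39 with Cat, 9.74 and 8.37 with HDM, 4.13 and 4.58 with Grass and 2.42 and 3.71 in untreated cells (-1.35 from HDM, SE 0.15). Both HDM libraries lay above the other 6 in both genes, and Cat did not differ from untreated cells past the threshold in Ahrr or Cxcl2. Both Cat libraries lay below both HDM ones in 2416 of the 11455 rows tested. Csf2rb (-1.34, with reads that its copy Csf2rb2 may share), Mmp8 (-1.22), Dfna5, which encodes a gasdermin (-1.19), and Pet117 (-1.15) were lower than with HDM as well. Of NF-kB feedback genes 5 of 24 were lower with Cat than with HDM and 0 higher, with 3 lower without Cat 1 or without HDM 1. Among them was the ubiquitin ligase Birc3, at 31.3 and 27.5 with Cat, 42.0 and 40.3 with HDM, 30.5 and 32.4 with Grass and 30.3 and 31.5 in untreated cells (-0.49, SE 0.06). Amd2, called higher than with HDM (1.96, SE 0.30), is a near copy of Amd1 and uncertain, and its call ended without Cat 1 (limma adjusted p = 0.182), Cat 2 (0.197) or any 1 Grass or untreated library. Pet117 was not called without Cat 1 (-0.72, limma adjusted p = 0.0901).

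**Figure D5:**
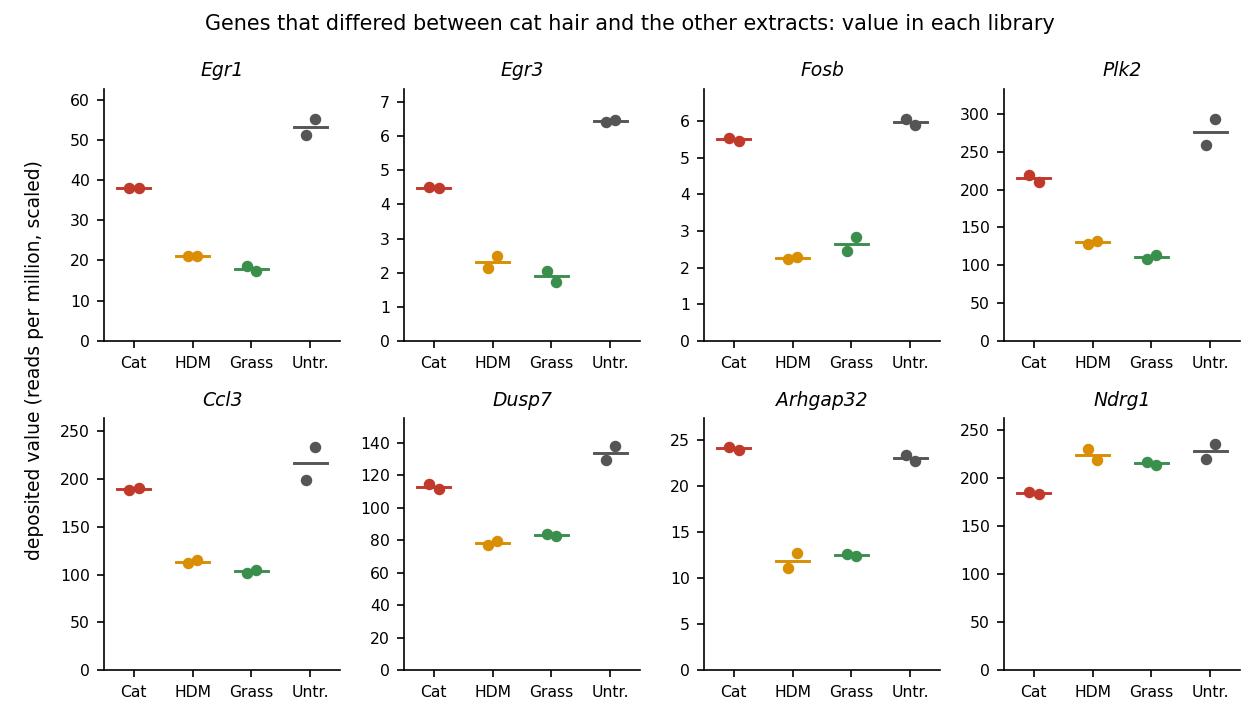
Deposited value (vertical axis, reads per 1e6, scaled) in each library by group, with points for libraries and bars for the mean of 2. Egr1, Egr3, Fosb, Plk2, Ccl3, Dusp7 and Arhgap32 were higher with Cat than with HDM and with Grass, and Ndrg1 was lower than with both.

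Hypoxia genes were lower with Cat than with any other group in a few members. Against HDM 5 of 34 glycolysis and hypoxia genes were lower with Cat and 1 was higher. Against Grass 9 were lower and 2 higher. Over all rows tested, 2.94% were lower and 4.82% higher than with HDM, and 3.58% lower and 8.23% higher than with Grass. The counts lower were 3 and 3 in limma without its trend and robust settings. Ndrg1 was at 186 and 183 with Cat, 230 and 219 with HDM, 217 and 214 with Grass and 220 and 236 in untreated cells, so that its Cat libraries were the lowest of the 8 (-0.28 from HDM and -0.22 from Grass, SE 0.03 each). Ero1l, an oxidase of the endoplasmic reticulum, was at 363 and 362 with Cat, 453 and 419 with HDM, 402 and 406 with Grass and 424 and 418 in untreated cells (-0.26 from HDM and -0.15 from Grass). Bnip3l was at 134 and 132 with Cat, 150 and 149 with HDM, 159 and 158 with Grass and 158 and 165 in untreated cells (-0.16 from HDM and -0.25 from Grass). In each of the 3 genes both Cat libraries lay below the other 6. Of the 11455 rows tested, both Cat libraries lay below both HDM ones in 2416 and below both Grass ones in 2554. Hk2 ran the other way, at 316 and 312 with Cat, 281 and 288 with HDM, 271 and 270 with Grass and 349 and 354 in untreated cells (0.14 from HDM and 0.22 from Grass).

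Of 25 Nrf2 and glutathione genes 10 were lower and 1 higher with Cat than with Grass, and 2 were lower and 1 higher with Cat than with HDM. Over all rows 3.58% were lower and 8.23% higher than with Grass, and 2.94% were lower and 4.82% higher than with HDM. Nothing is read from the counts of this list against HDM. Hmox1 was at 556 and 569 with Cat, 557 and 541 with HDM, 805 and 851 with Grass and 453 and 506 in untreated cells (-0.56 from Grass, SE 0.05, limma adjusted p = 0.00011). Grass stood above all other groups in this gene, and Cat and HDM overlapped. The count lower than with Grass was 5 without Cat 1 or without Grass 1, 4 without Cat 2, 3 without Grass 2 and 2 in limma without its trend and robust settings. G2/M genes were higher with Cat than with Grass in 14 of 35 and lower in 0, and higher than with HDM in 5 and lower in 1. Plk1 was at 99.5 and 94.9 with Cat, 84.8 and 87.4 with HDM and 85.3 and 79.8 with Grass (0.17 from HDM and 0.24 from Grass, SE 0.04 each). The G2/M genes higher than with Grass numbered 4 without Cat 1, 5 without Grass 2, 8 with upper-quartile factors and 5 with library totals alone. Those higher than with HDM numbered 0 without Cat 1 or HDM 1 and 3 without Cat 2. Limma without its trend and robust settings called 0 G2/M genes in both comparisons. Ribosome biogenesis and Myc genes were higher with Cat than with Grass in 13 of 30 and lower in 0, with 8 when the scaling factor was applied once and 5 to 6 without a Cat or a Grass library. Interferon-stimulated genes were called in 0 of 57 members against HDM, where 4 were higher and 4 lower at an unadjusted p under 0.05 in limma and edgeR and DESeq2 also called 0, and in 1 against Grass.

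S1pr1, the receptor that guides lymphocytes out of tissue, was at 4.40 and 5.52 with Cat, 9.74 and 9.72 with HDM, 8.71 and 8.83 with Grass and 4.21 and 3.65 in untreated cells (-0.97 from HDM and -0.82 from Grass, SE 0.11 each). It was called higher with Cat than in untreated cells at 0.32 (SE 0.11, limma adjusted p = 0.045). That call lay close to the threshold and was not followed under other scaling or with a library left out. Trp53inp1 (-0.93), D930048N14Rik (-1.06), Fam131a (-0.79), the clock factor Dbp (-0.76) and Hist1h2ae (-0.73) were the other genes with the largest differences below Grass, and without Cat 1 the calls of D930048N14Rik (-0.69, limma adjusted p = 0.191), Fam131a (0.0519) and Hist1h2ae (-0.47, limma adjusted p = 0.361) ended, as they did without either Grass library.

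The authors' deposited table for cat hair extract lists 53 genes, 20 with a positive and 33 with a negative fold, none smaller in size than 1.507. All 53 were tested here, and 35 were called with the same sign as in the authors' deposited table, while 18 were not called. The authors' deposited table gives an FDR under 0.05 for 31 of the 53. Its name gives a cut at 1.5-fold and p of 0.05, whereas calls here used an adjusted p and no fold cut. The 18 not called here were not only genes with a high authors' FDR. Among them were Trim30a (authors' FDR 5.6e-09), Isg15 (1.4e-07), Usp18 (1.4e-07) and Oasl2 (4.3e-06), as well as Col9a3 (0.171). Its largest positive fold is that of Trem1, an activating receptor of myeloid cells, at 2.122 in the authors' deposited table, which had a log2 fold change of 0.96 (SE 0.22) here and a mean under 1.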

How the data were processed

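The 8 libraries were made from enriched mRNA by a stranded protocol, per the labels, and the strand setting of the counting is not given in the sources used here. The submitters' processing notes name Bowtie2 2.1.0, RSEM 1.2.15, edgeR and mm9, with no order. The authors deposited a signal per gene that is a whole number of reads divided by a scaled library size: every nonzero value was a whole multiple of the value of 1 read within 1e-06 reads, and the scaling equals the TMM factor squared. The authors' deposited table of comparisons gives a signed linear fold, used as a score, and an FDR (adjusted p-value) per gene.

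The deposited values were tested with limma 3.58.1 (R 4.3.3, trend and robust settings) on log2(value + 0.1), in 1 fit of all 8 libraries (4 residual degrees of freedom), adjusted by Benjamini-Hochberg over 11455 rows, so log2 fold changes of low genes are understated. Recovered reads were tested with edgeR 4.0.16 and DESeq2 1.42.0 as alternatives, and the code was tested on simulated data. Of the rows tested, 14 carry a date in place of a symbol and are not named. The 12 called genes with the largest change each way (6 between extracts) with a mean of at least 1 and no overlap were named, with the called members of lists and 10 fixed genes. The comparison, lists and named groups were chosen with earlier results of these data known. Near-identical genes may share reads. Promoters are from RefSeq (GRCm38.p6) and matched 8693 rows by symbol.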

Additional observations from a re-analysis of the deposited data

Results flagged for a closer look

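Arhgap32 differed between the extracts. Its value was 24.2 and 23.9 with Cat, 11.04 and 12.71 with HDM, 12.6 and 12.4 with Grass and 23.4 and 22.7 in untreated cells. Its log2 difference between Cat and HDM was 1.02 and between Cat and Grass 0.94 (limma adjusted p = 5.2e-11 and 4.0e-10), with both Cat libraries above all HDM and Grass libraries. Against untreated cells the log2 fold change was 0.06 with Cat (SE 0.07, limma adjusted p = 0.58), -0.95 with HDM and -0.88 with Grass. The cause was not tested.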

How the results depend on the processing

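None of the 299 named calls against untreated cells changed sign under the settings tried that tested the gene, and 105 of them were called the same way under every setting; the other calls were not followed gene by gene. Library scaling set the balance of calls. Against untreated cells 788 genes were higher with TMM factors, 765 with DESeq2 factors, 955 with upper-quartile factors and 1310 with library totals (chosen after seeing the data), and 898 and 730 were lower with the last pair; edgeR with TMM and filterByExpr, also chosen after seeing the data, gave 1035 lower. Against Grass, upper-quartile factors gave 615 higher and library totals 521 higher and 754 lower, and against HDM library totals gave 364 higher. Without limma's trend and robust settings the counts higher and lower were 163 and 386 against untreated cells, 124 and 114 against HDM, and 197 and 127 against Grass. DESeq2 called 203 higher against untreated cells, 328 higher and 204 lower against HDM, and 596 higher and 192 lower against Grass. The 4 Cat and untreated libraries alone gave 297 higher. With 1 library left out the counts ran from 201 to 573 higher and 754 to 1942 lower against untreated cells, 256 to 796 and 164 to 483 against HDM, and 375 to 1327 and 160 to 628 against Grass. The causes were not tested.

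Replicate numbers did not pair the libraries: differences between replicates correlated at -0.0376 for Cat and untreated, -0.136 for Cat and HDM and 0.0911 for Cat and Grass over 10761 rows. A replicate block gave 472 higher and 1485 lower against untreated cells, 522 and 328 against HDM, and 912 and 400 against Grass. With the HDM numbers crossed, chosen after seeing the data, the block gave 551 and 355 against HDM.

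Depth limits low genes: 1125 rows had a mean under 2 and a median SE of 0.27 on the log2 scale. With 2 libraries a group, a gene that was not called is not shown to be unchanged.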
